A study of Prunus dulcis and Malus domestica and Olea europaea with 8 samples.

Results

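Plant miRNAs of families numbered 400 to 5999 were examined in small RNA libraries of 8 plant-based foods. The genes were chosen by name alone: a gene was included when the digits after MIR or mir- lay in this range, except families 403, 408, 482, 535, 827, 2111 and 2118. This gave 14 of the 209 miRNA genes counted, and 9 of the 88 families. The foods were almond (Prunus dulcis), apple (Malus domestica), pear (Pyrus communis), orange (Citrus sinensis), olive (Olea europaea), walnut (Juglans regia), tomato (Solanum lycopersicum) and spinach (Spinacia oleracea), each with 1 library of total RNA from the edible portion, untreated and raw where the study describes the food. The almond library was deposited with the others, but the paper does not describe it. The reads of every food were aligned to the peach genome (Prunus persica NCBIv2), so the counts are those of reads that match a peach gene, and a miRNA that has diverged from the peach sequence may be missed. The table holds miRNA genes only, so the identity of the foods could not be checked against other markers. Because each food was sequenced from a single library, replicate spread is unknown. Foods were not tested against each other, apart from a descriptive screen for libraries that stood apart, given at the end. The values in parentheses are exact 95% intervals, by the Clopper-Pearson method for shares and by a conditional binomial for ratios, and they cover counting error only. Ratios between foods are of shares unless another scaling is named: TMM of edgeR and poscounts of DESeq2, which each set the libraries to a common level from many genes, or the normalized reads that the authors deposited.

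Mature plant miRNAs are cut from a hairpin precursor by a Dicer-like enzyme and guide an Argonaute protein to mRNAs that pair with them almost fully. Low family numbers were mostly given to families that many land plants share, while higher numbers were given later and often to families known from fewer plant lineages. miR828 and miR858 target mRNAs of MYB transcription factors, among them regulators of flavonoid and anthocyanin synthesis, the pigments of many fruits. miR828 also cuts the non-coding TAS4 transcript in Arabidopsis, which starts the production of secondary small RNAs. miR3627 and miR5225 belong to relatives of miR390 that target an autoinhibited calcium pump mRNA, and miR530 targets a gene with a Plus-3 domain in rice.

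The 8 libraries held between 39249 (walnut) and 212021 (apple) counts over all miRNA genes, and their median was 67321. At least 1 count in any food was found for 13 of the 14 genes, against a background of 89.5% of all 209 genes. At least 3 counts were reached by 11 genes (background 72.2%) and at least 10 counts by 10 genes (background 54.5%). MIR477a was the gene without a count. Pear had counts of 9 of the 14 genes (64.3%, background 50.2%), and almond, apple and walnut of 8 each (57.1%), where the backgrounds were 58.9% in almond, 46.4% in apple and 32.5% in walnut. Tomato had 7 (50%, background 50.7%), olive and orange had 6 each (42.9%, backgrounds 48.8% and 46.4%), and spinach had 3 (21.4%, background 33%). At the depth of the walnut library, the expected number was 7.64 in almond, 7.54 in pear, 5.74 in olive, 5.55 in tomato, 5.34 in orange, 4.57 in apple and 2.63 in spinach. Over all 209 genes the expected number was 117 in almond, 86.4 in pear, 90.7 in olive and 87.1 in tomato. It was 87.4 in orange, 66.1 in apple and 64.5 in spinach. Apple thus dropped the most, as it also did over all genes, from 97 to 66.1. The 3 highest genes took 79.1% of the counts in the apple library. Of the 112 gene-by-food values, 55 were above 0 (49.1%, against 45.9% of the 1672 values of all genes), and 19 were at least 10 counts (17.0%, against 22.7%). Values of 1 or 2 counts made up 17 of these 55, against 214 of 767 over all genes. Whether the single counts came from carry-over between libraries was not tested.

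**Figure D1:**
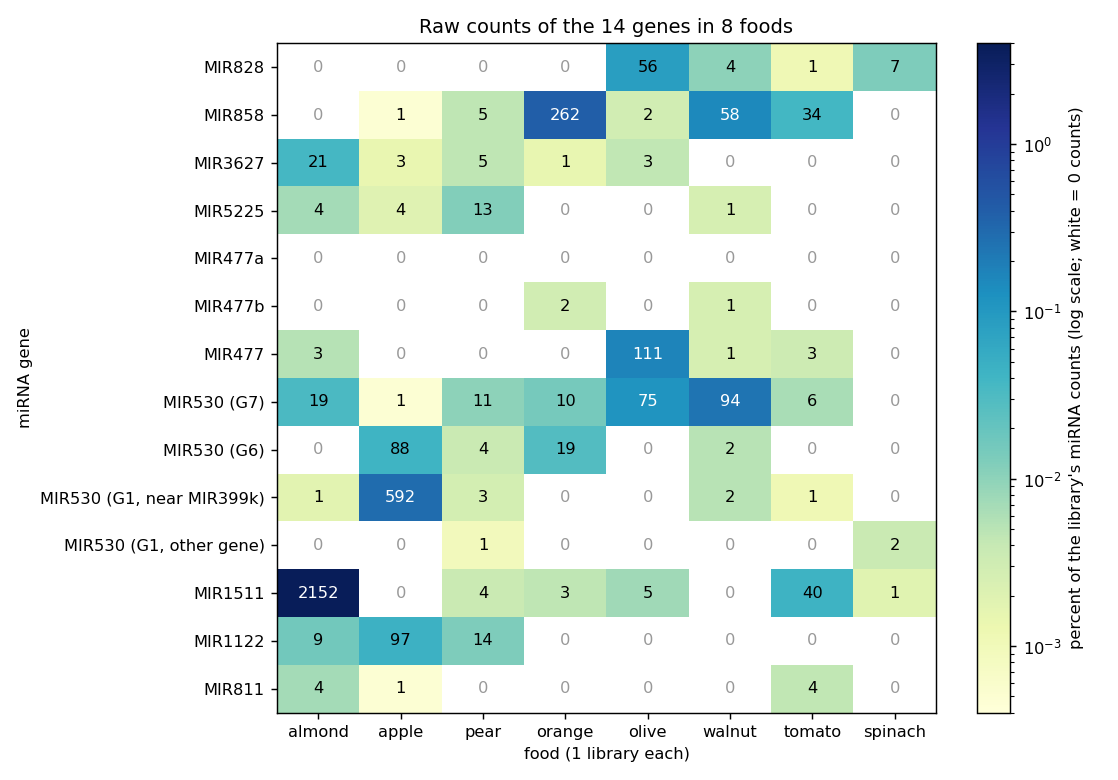
Raw counts (numbers) of the 14 genes (down) in the 8 foods (across), with the share of the library's miRNA counts as colour on a log scale and white for 0 counts. The highest cell is MIR1511 in almond with 2152 counts, and MIR477a is at 0 in every food.

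The 14 genes together held a small part of the miRNA counts in every food. Their summed share was highest in almond, where 2213 of 56996 counts made 3.88% (3.73 to 4.04). Orange followed with 297 counts or 0.443% (0.394 to 0.496), then walnut with 163 or 0.415% (0.354 to 0.484). Olive, with 252 counts or 0.373% (0.328 to 0.422), and apple, with 787 or 0.371% (0.346 to 0.398), were next, and the intervals of these 4 foods overlapped. In such bulk samples, fewer cells with a miRNA and less of it per cell cannot be told apart. Tomato had 89 counts or 0.0982% (0.0789 to 0.121), pear 60 or 0.0550% (0.0420 to 0.0709), and spinach 10 or 0.0182% (0.00873 to 0.0335). The leading gene was MIR1511 in both almond and tomato and a different gene in each of the other 6 foods, and it took between 23.3% of the counts on the 14 genes in pear and 97.2% in almond. In pear MIR1122 led with 14 counts, against 13 for MIR5225 and 11 for a MIR530 gene (ENSRNA049997099). In tomato MIR1511 led with 40, against 34 for MIR858. The count intervals of these genes overlapped within each food, so the leading gene there is uncertain. The almond value rested on MIR1511. Without the leading gene of each library, olive was highest with 0.209% (0.176 to 0.246) and walnut second with 0.176% (0.137 to 0.222), whereas almond was at 0.107% (0.0819 to 0.137) and apple at 0.0920% (0.0795 to 0.106). Over the 8 libraries, the 14 genes held 3871 counts, 0.555% of all. Families numbered below 400 held 89.0%, the excluded families 8.91% and families numbered 6000 or above 1.57%. Almond stood out in these classes too. Families numbered below 400 held 47.1% of its counts, against 89.0% (walnut) to 96.7% (spinach) in the other foods. The excluded families held 34.1% in almond and at most 10.6% elsewhere (walnut). Families numbered 6000 or above held 14.96% in almond and at most 1.98% elsewhere (pear). The higher share in almond was thus not confined to the 14 genes. Almond is of the same genus as the peach reference, so for these higher shares a closer sequence match and a higher level cannot be told apart.

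**Figure D2:**
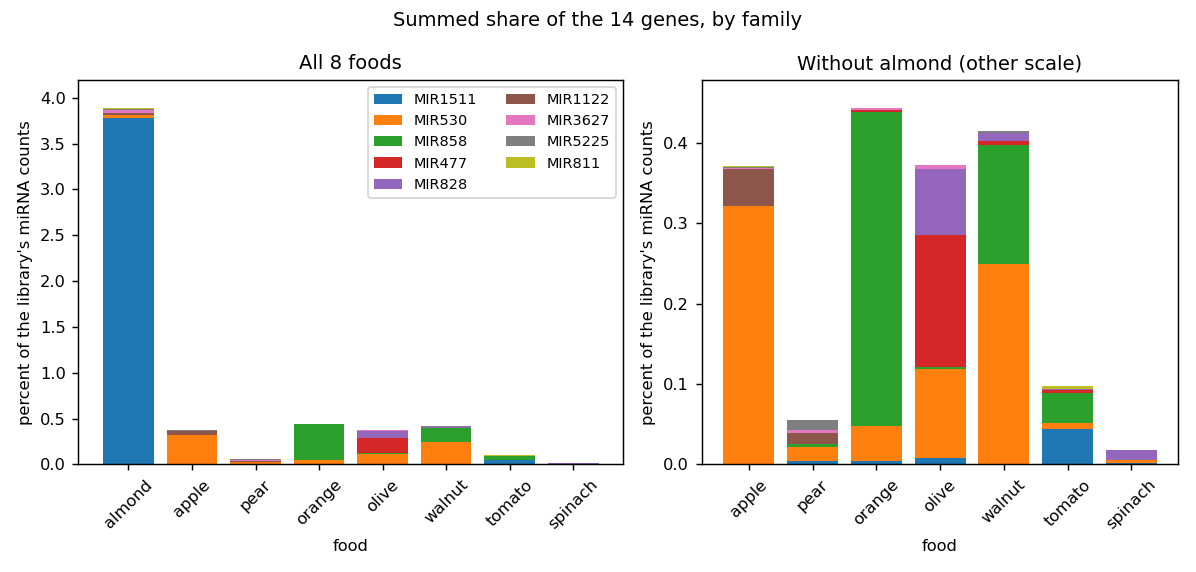
Stacked bars of the percent of each library's miRNA counts on the 14 genes, coloured by family, for all 8 foods (left) and, on another scale, for the 7 foods without almond (right). MIR1511 fills nearly all of the almond bar of 3.88%, while MIR858 leads in orange, MIR530 in apple and walnut, and MIR477 in olive.

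The MYB-targeting genes MIR858 and MIR828 had different leading foods. MIR858 (ENSRNA049996946) lies on G5 from 17621572 to 17621974 on the + strand, is annotated as an exon, and at 403 bp was the longest of the 209 annotated genes. It had 262 counts in orange, 58 in walnut, 34 in tomato, 5 in pear, 2 in olive, 1 in apple and 0 in almond and spinach. Orange, walnut and tomato thus carried nearly all of its counts. As shares these were 0.391% in orange (0.345 to 0.441), 0.148% in walnut (0.112 to 0.191) and 0.0375% in tomato (0.0260 to 0.0524), and no interval of these 3 foods overlapped another. The share in orange was 2.65 times that in walnut (1.98 to 3.58). In almond a count of 0 allows a share of up to 0.00526%. The share in orange was thus at least 74.3-fold higher than in almond, and likewise at least 71.6-fold higher than in spinach. Limits of this kind were not computed under the other scalings.

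MIR828 (ENSRNA049996398) lies on G2 from 29568537 to 29568661 on the - strand, also as an exon. It had 56 counts in olive, 7 in spinach, 4 in walnut, 1 in tomato and 0 in almond, apple, orange and pear. Olive stood above the rest with a share of 0.0828% (0.0626 to 0.108), against 0.0127% in spinach (0.00512 to 0.0263), a ratio of 6.50 (2.95 to 16.9). That ratio of olive to spinach was 4.57 without the 3 highest genes of each library (2.08 to 11.9) and 10.8 with poscounts. It was 20.4 with TMM and 23.5 in deposited normalized reads. Under both of these scalings walnut and not spinach was second to olive, so the lead over the second food was smaller. In deposited normalized reads olive was at 7.66 and walnut at 1.04. In spinach these 7 counts were the highest of any of the 14 genes. Against the foods at 0, the share in olive was at least 15.7-fold higher than in almond, 18.5-fold than in orange, 30.1-fold than in pear and 58.5-fold than in apple. These are limits for shares only.

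Where both MYB-targeting genes had counts, the balance between them turned with the food. MIR858 made up 3.45% of the 58 counts on the pair in olive (0.420 to 11.9), 93.5% of 62 in walnut (84.3 to 98.2) and 97.1% of 35 in tomato (85.1 to 99.9). In orange all 262 counts were on MIR858 (98.6 to 100%), and in spinach all 7 were on MIR828. The pair was low beside MIR159, a family that targets another clade of MYB genes, whose 9 genes held between 9.07% of the miRNA counts in apple and 44.7% in orange. The nearest annotated miRNA gene to MIR858 was a MIR159 gene (ENSRNA049996936), 64320 bp away on the same strand.

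**Figure D3:**
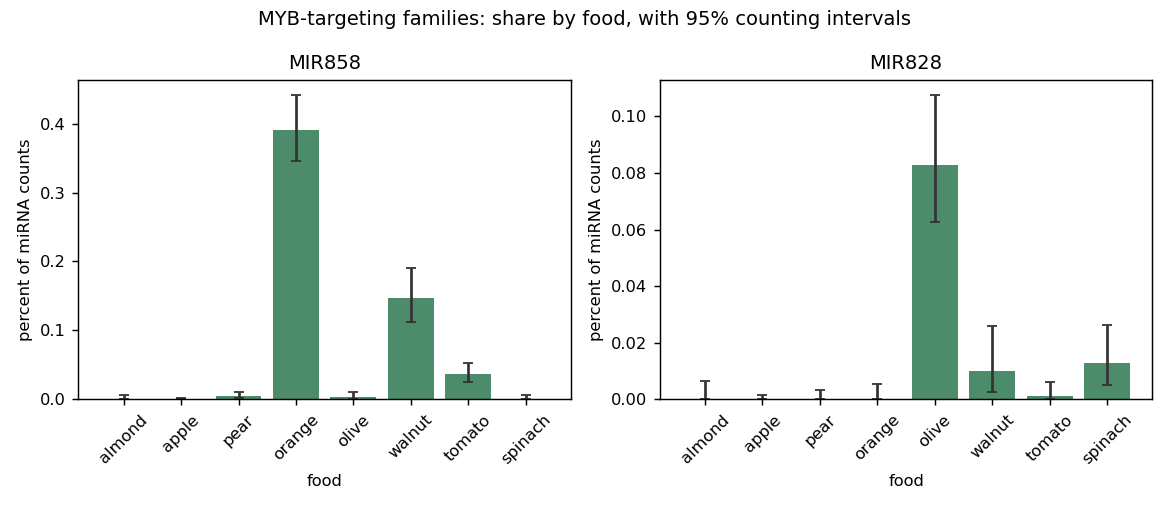
Share of the library's miRNA counts (percent, bars) of MIR858 (left) and MIR828 (right) in the 8 foods, each panel on its own scale, with exact 95% counting intervals as error bars. MIR858 is highest in orange at 0.391% and MIR828 in olive at 0.0828%, and the orange library has no MIR828 count.

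MIR3627 and MIR5225, the relatives of miR390 that target a calcium pump, are neighbours on G3. MIR3627 (ENSRNA049996616) lies from 25329223 to 25329326 and MIR5225 (ENSRNA049996610) from 25326751 to 25326894, both on the - strand as exons, with 2328 bp between them. MIR3627 had 21 counts in almond, 5 in pear, 3 in apple, 3 in olive, 1 in orange and 0 in spinach, tomato and walnut. MIR5225 had 13 counts in pear, 4 in almond, 4 in apple, 1 in walnut and 0 in the other 4 foods. Counts of both genes were found in almond, apple and pear, but by share apple was no higher than foods with a count of only 1 of the pair: MIR3627 was at 0.00141% in apple and 0.00444% in olive, with 3 counts each, and MIR5225 at 0.00189% in apple and 0.00255% in walnut, with overlapping intervals. Of the counts on the pair, MIR3627 held 84% of 25 in almond (63.9 to 95.5) and 27.8% of 18 in pear (9.69 to 53.5), and these intervals did not overlap. The share of MIR3627 in almond, 0.0368% (0.0228 to 0.0563), was 8.03 times that in pear (2.95 to 27.3). This ratio was 2.93 with TMM (1.07 to 9.93), 2.70 with poscounts (0.991 to 9.17), which includes equal levels, and 118 in deposited normalized reads (43.2 to 399.5). With TMM and in deposited normalized reads olive and not pear was second to almond, so the lead over the second food was smaller there. The interval of almond over olive was not computed. For MIR5225 the ratio of pear to almond was 1.70 (0.525 to 7.15), an interval that includes equal shares, whereas it was 4.67 with TMM (1.44 to 19.6) and 0.116 in deposited normalized reads (0.0358 to 0.488). With TMM apple and not almond was second to pear.

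Among other relatives of these genes, the 2 MIR390 genes had 1642 counts in orange, 260 in olive, 97 in walnut, 60 in almond, 51 in pear, 34 in tomato, 27 in spinach and 0 in apple. The 2 genes of MIR7122, a family that starts secondary small RNAs like miR828, had 6932 counts in almond, 1644 in pear, 51 in orange, 12 in olive, 10 in apple, 1 in tomato and 0 in spinach and walnut. Orange thus led for MIR390 and almond for MIR7122. For almond, a closer sequence match to the peach reference and a higher level cannot be told apart, in MIR7122 as in MIR3627.

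The MIR477 family has 3 annotated genes, and its counts fell almost wholly on a single gene in a single food. MIR477 (ENSRNA049996883, G5, 11887689 to 11887784, + strand, exon) had 111 counts in olive, 3 in almond, 3 in tomato, 1 in walnut and 0 in apple, orange, pear and spinach. Its share in olive was 0.164% (0.135 to 0.198), the highest of the 14 genes in that library, and 31.2 times the share in almond (10.4 to 154). That ratio was 5.30 in deposited normalized reads. It was 167 with TMM, where walnut and not almond was second to olive. The share in olive was at least 30.1-fold higher than in spinach and at least 116-fold higher than in apple. These limits were not computed under the other scalings. The other genes of the family, MIR477a (ENSRNA049996536, G3, 15484911 to 15485032) and MIR477b (ENSRNA049996542, G3, 15489969 to 15490090), are exons on the - strand with 4936 bp between them. MIR477b had 2 counts in orange and 1 in walnut, and MIR477a had none, which in apple, the deepest library, allows a share of up to 0.00141%.

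MIR530 was the largest family by gene number, with 4 genes of that name, and the gene that took its counts differed between foods. The gene ENSRNA049997099 (G7, 14976858 to 14976998, - strand) was counted in 7 foods, more than any other of the 14 genes. It had 94 counts in walnut, 75 in olive, 19 in almond, 11 in pear, 10 in orange, 6 in tomato, 1 in apple and 0 in spinach. Its share was 0.239% in walnut (0.194 to 0.293) and 0.111% in olive (0.0872 to 0.139), a ratio of 2.16 (1.58 to 2.97). With TMM this ratio was 1.11 (0.811 to 1.52), an interval that includes equal levels, and with poscounts it was 1.39 (1.01 to 1.90). The gene ENSRNA050003493 (G1, 43092266 to 43092467, - strand), which lies 2753 bp from MIR399k, showed another pattern. It had 592 counts in apple, 3 in pear, 2 in walnut, 1 in almond, 1 in tomato and 0 in olive, orange and spinach. Its share in apple was 0.279% (0.257 to 0.303), the 11th highest of the 97 genes detected there. It was 54.8 times the share in walnut, although this ratio rests on 2 walnut counts (15.1 to 454). The ratio of apple to walnut was 4.71 in deposited normalized reads and 213 with poscounts. In deposited normalized reads almond and not walnut was second, with 0.954 from 1 count against 2.46 in apple. With poscounts pear was second.

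The gene ENSRNA050003167 (G6, 7788379 to 7788615, + strand) had 88 counts in apple, 19 in orange, 4 in pear, 2 in walnut and 0 in the other 4 foods. The shares in apple and orange were 0.0415% (0.0333 to 0.0511) and 0.0284% (0.0171 to 0.0443), and the interval of their ratio of 1.46 includes equal shares (0.884 to 2.55). Under every other scaling the interval left out equal levels, with ratios of 2.09 without the 3 highest genes of each library (1.27 to 3.64), 2.35 with TMM (1.42 to 4.09) and 4.51 with poscounts (2.72 to 7.84), but 0.193 in deposited normalized reads (0.116 to 0.335). The gene ENSRNA050004132 (G1, 32059020 to 32059180, + strand) had 2 counts in spinach and 1 in pear. All 4 genes are annotated as exons. Within the family, the G7 gene held 100% of 75 counts in olive (95.2 to 100), 95.9% of 98 in walnut (89.9 to 98.9), 95% of 20 in almond (75.1 to 99.9) and 0.147% of 681 in apple (0.00372 to 0.815). In apple the gene near MIR399k held 86.9% (84.2 to 89.4) and the G6 gene 12.9% (10.5 to 15.7). Copies of a family can share reads, so the levels of single copies are uncertain. The summed MIR530 share was 0.321% in apple (0.298 to 0.346), 0.250% in walnut (0.203 to 0.304), 0.111% in olive (0.0872 to 0.139) and between 0.00364% and 0.0433% in the other 5 foods.

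**Figure D4:**
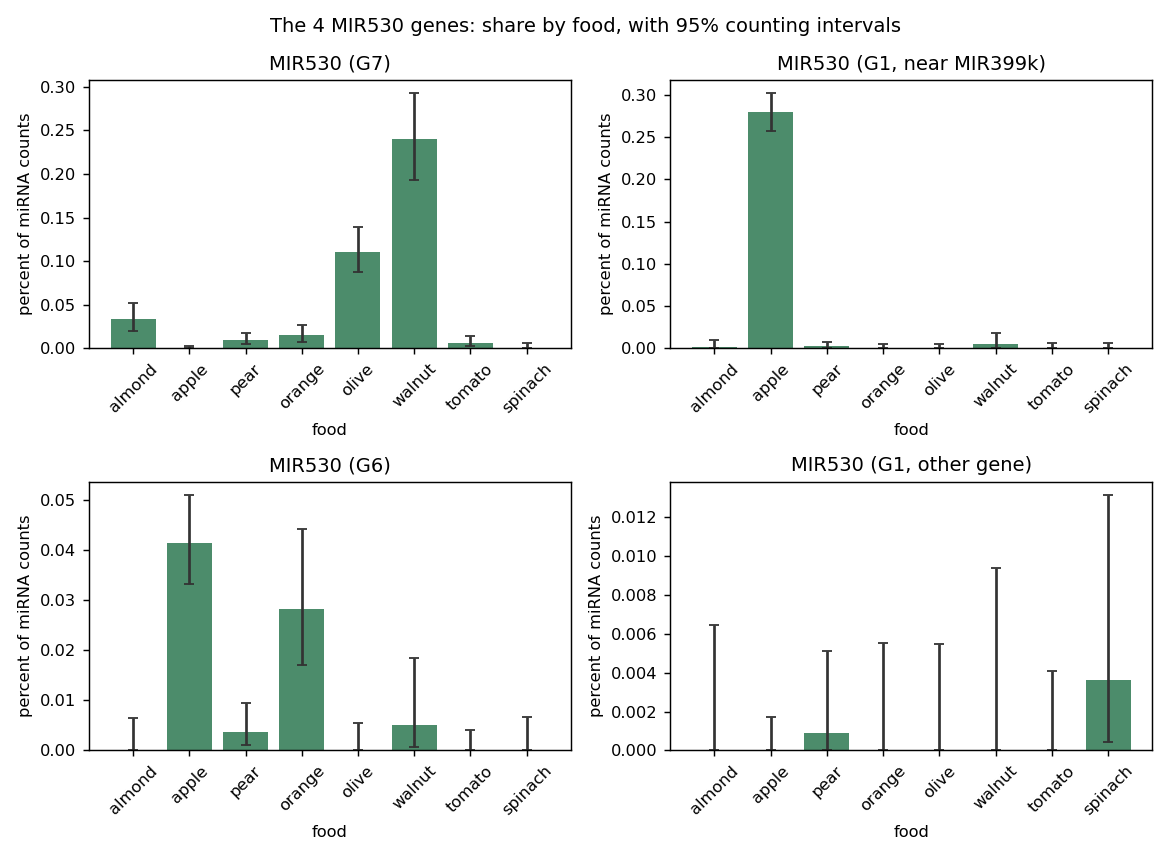
Share of the library's miRNA counts (percent, bars) of the 4 genes named MIR530 in the 8 foods, each panel on its own scale, with exact 95% counting intervals as error bars. The G7 gene is highest in walnut at 0.239%, the G1 gene near MIR399k in apple at 0.279%, and the other G1 gene has no more than 2 counts in a food.

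MIR1511 had the highest count of the 14 genes. The family is known from legumes and other dicots, and in common bean it targets a gene for aluminium tolerance. The gene (ENSRNA049996520) is an exon of 84 bp on G3 from 9435160 to 9435243 on the + strand, and the nearest other annotated miRNA gene is 3521016 bp away. It had 2152 counts in almond, 40 in tomato, 5 in olive, 4 in pear, 3 in orange, 1 in spinach and 0 in apple and walnut. Almond was thus far above every other food, with a share of 3.78% (3.62 to 3.94) that made MIR1511 the 8th highest of the 123 genes detected there. Tomato was second with 0.0441% (0.0315 to 0.0601), and almond was 85.6 times as high (62.6 to 120). That ratio was 27.9 with poscounts and 2225 in deposited normalized reads. Apple and pear are also of the rose family. There, 0 of 212021 counts in apple puts the share in almond at least 2668-fold higher, a limit not computed under the other scalings. The 4 counts in pear made a share of 0.00367% (0.00100 to 0.00940). Almond is of the same genus, Prunus, as the peach reference, so a closer sequence match and a higher level cannot be told apart. The 40 counts in tomato amounted to 1.86% of the almond count, and the counts in the other 4 foods that had any to between 0.0465% and 0.232% of it. MIR1511 held 57.0% of all counts on the 14 genes.

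MIR1122 and MIR811 are families first described in grasses, MIR1122 in wheat and MIR811 in rice. MIR1122 (ENSRNA050003825, G8, 1900967 to 1901096, + strand, exon) had 97 counts in apple, 14 in pear, 9 in almond and 0 in orange, olive, walnut, tomato and spinach. Its 120 counts thus lay in the 3 foods of the rose family. The peach reference is of this family too, so a closer sequence match and a higher level cannot be told apart. The shares were 0.0458% in apple (0.0371 to 0.0558), 0.0158% in almond (0.00722 to 0.0300) and 0.0128% in pear (0.00702 to 0.0215). Apple was 2.90 times as high as almond (1.46 to 6.53), but 11.3 times with TMM, 17.8 times with poscounts and 0.0468 times in deposited normalized reads, and the intervals of the almond and pear shares overlapped. With TMM and with poscounts, pear and not almond was second to apple. Against the 5 foods at 0, the share in apple was at least 5.99-fold higher than in walnut and at least 13.8-fold higher than in tomato. These limits were not computed under the other scalings. MIR811 (ENSRNA050003151, G6, 4014119 to 4014323, + strand, exon) had 4 counts in almond, 4 in tomato, 1 in apple and 0 in the other 5 foods.

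For 3 genes the leading food depended on how the libraries were scaled. The deposited normalized reads are the counts divided by 1 factor per library, and this factor was 1.05 in almond and 241.04 in apple, a 230-fold range against 5.40-fold for the total counts. With these reads, 7 of the 10 genes with at least 10 counts in a food had the same leading food as by share. The exceptions were MIR1122, with 0.402 normalized reads in apple against 8.59 in almond, MIR5225, with 0.443 in pear against 3.82 in almond, and the G6 MIR530 gene, with 0.365 in apple against 1.89 in orange. The leading food of all 10 genes was the same as by share with edgeR TMM, with DESeq2 size factors (poscounts) and with shares that left out the 3 highest genes of each library. For the sum of the 14 genes, almond led orange by a factor of 8.76 as shares (7.76 to 9.92) and 71.4 in deposited normalized reads (63.2 to 80.8), against 3.59 with TMM (3.18 to 4.07). Walnut and not orange was second in deposited normalized reads, and olive with TMM, so the lead over the second food was smaller there.

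**Figure D5:**
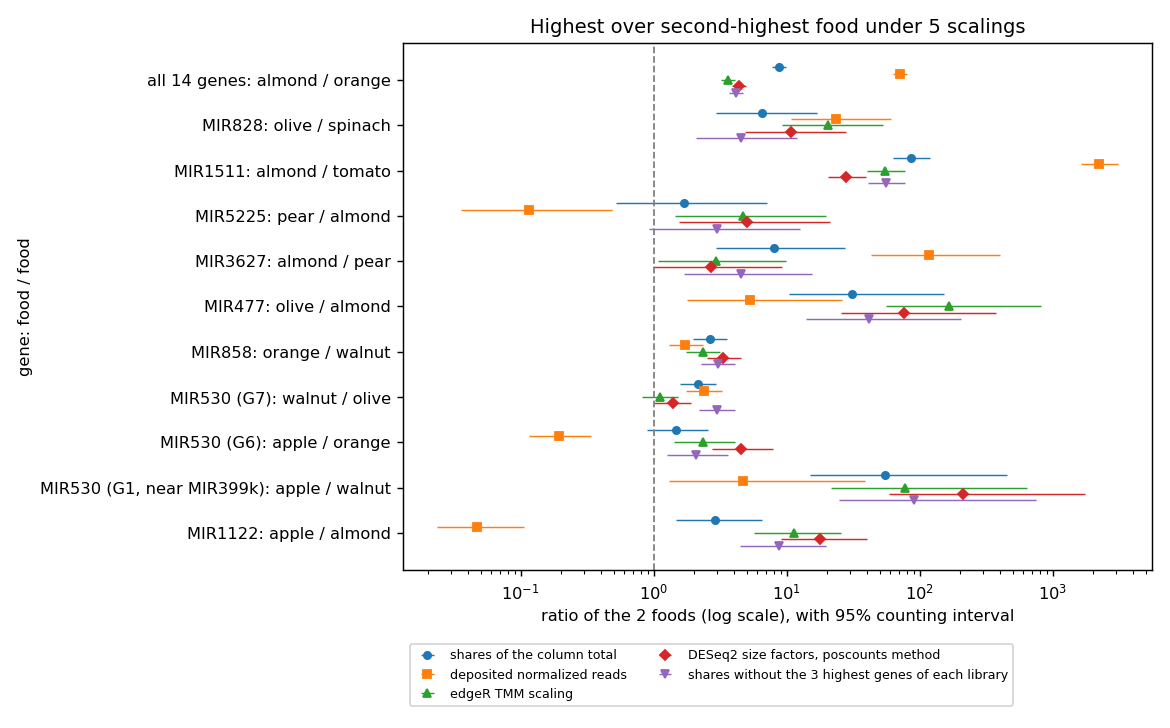
Ratio of the highest to the second-highest food by share (log axis; the dashed line marks equal levels) for all 14 genes summed and for the 10 genes with at least 10 counts in a food, under 5 scalings, with exact 95% counting intervals as horizontal bars. The squares of the deposited normalized reads lie left of the line for MIR5225, the G6 MIR530 gene and MIR1122, and every other point lies right of it.

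None of the 14 genes had a count in all 8 foods, against 9.09% of all 209 genes, and the median gene had counts in 4 foods, against 3 over all genes and 5 for families numbered below 400. Of the 10 genes with at least 10 counts in a food, apple had the highest share of 3 (background 7.02%), almond of 2 (28.1%), olive of 2 (13.2%), and orange (14.9%), pear (15.8%) and walnut (11.4%) of 1 each. Tomato (6.14%) and spinach (3.51%) led for none. In 3 of these 10 genes, MIR1511, MIR477 and the G1 MIR530 gene near MIR399k, a single food held over 90% of the share summed over the foods, against 27.2% of all genes with at least 10 counts. The median part held by the highest food was 71.2%, against 72.2% over all such genes. These are descriptions of 10 genes, and no test was made of them. By position, 5 of the 14 genes (35.7%) lay within 10000 bp of another annotated miRNA gene, against 32.5% of all genes, and the median length was 135.5 bp, against 125 bp.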

How the data were processed

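Small RNA libraries of 8 foods, each represented by a single library, were examined. As the study's methods state, the authors trimmed adapters with skewer, selected reads between 15 and 30 bases in length, and mapped these with ShortStack to peach NCBIv2 using miRBase 22 annotation. The submitters' processing notes name HTSeq and DESeq2. No versions were stated in the sources at hand. The raw table, as deposited, gives whole-number counts for each miRNA gene and strand, without normalization. The deposited normalized table holds a signal, namely these counts divided by 1 factor for each library, which the authors state came from DESeq2. Default DESeq2 factors computed here from the raw counts were 0.535 in almond and 1.27 in apple. They did not match the deposited factors of 1.05 and 241.04, and the reason was not tested. No column of another sample was present (0).

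Genes were selected by family number, and the 14 genes and the family lists were chosen with earlier results of these data known. Every gene was accounted for, and those with at least 10 counts in a food were given in full. Counts were expressed as percent of the library total, between 39249 and 212021. A count of 0 was read as a limit of 3 counts. Folds against such foods are of shares and leave out the counting error of the higher food. Reads carried no molecular identifiers, so intervals cover counting error only. The treatment of reads that match several gene copies was not stated in the sources at hand. Expected detection at 39249 counts used the hypergeometric formula. Alternatives were detection minimums of 3 and 10 counts, leaving out almond, the highest of the 14 genes or the 3 highest genes, and scaling by deposited normalized reads, TMM (edgeR 4.0.16) or poscounts (DESeq2 1.42.0). The calculations were tested on simulated data. Input mass differed between foods and was not corrected. Analyses ran in R 4.3.3 and in Python 3.11.15 with scipy 1.17.1, pandas 2.3.3 and numpy 2.4.6, and plots were drawn with matplotlib 3.10.9. Sequences of the 14 genes were not used here.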

Additional observations from a re-analysis of the deposited data

Results flagged for a closer look

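The 8 libraries were screened with Dixon's test at the 95% level in 12 measures: the share of each of the 10 genes with at least 10 counts in a food, the summed share of the 14 genes, and the number of them detected. A library stood apart in 9 measures. These were almond in the summed share (3.88%), in MIR1511 (3.78%) and in MIR3627 (0.0368%), olive in MIR477 (0.164%) and MIR828 (0.0828%), apple in the G1 MIR530 gene near MIR399k (0.279%) and in MIR1122 (0.0458%), orange in MIR858 (0.391%) and walnut in the G7 MIR530 gene (0.239%). The foods are different plants and not replicates, so the screen is a description only. Chance flags about 1 in 20 groups of normal values, and these shares are skewed, so that rate need not apply. The 10 genes were also kept because at least 1 food reached 10 counts. That rule favours genes with a single high food, so a library apart in them was partly built in. The number of genes detected had no library apart.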

How the results depend on the processing

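The number of the 14 genes detected was 13 with or without almond, 11 at a minimum of 3 counts and 10 at a minimum of 10 counts. With the 3 highest genes of each library left out of the denominator, the summed share was 6.13% in almond, 1.78% in apple, 1.48% in orange, 1.21% in walnut, 0.785% in olive, 0.239% in tomato, 0.153% in pear and 0.0545% in spinach, so apple moved ahead of orange, walnut and olive. Without the highest of the 14 genes in each library, it was 0.209% in olive, 0.176% in walnut, 0.107% in almond, 0.0920% in apple, 0.0541% in tomato, 0.0522% in orange, 0.0422% in pear and 0.00546% in spinach. The lead of almond over orange in the sum was 71.4-fold in deposited normalized reads, 4.38-fold with poscounts, 4.13-fold without the 3 highest genes and 3.59-fold with TMM, against 8.76-fold by share. Orange was second only by share. Walnut was second in deposited normalized reads, olive with TMM, and apple with poscounts and without the 3 highest genes. The lead of almond over the second food was thus smaller under these scalings than its lead over orange. In deposited normalized reads the direction turned for MIR5225 in pear against almond (ratio 0.116), for the G6 MIR530 gene in apple against orange (0.193) and for MIR1122 in apple against almond (0.0468). The causes were not tested. No paired analysis was possible because each food had 1 library. Depth limits the low values: of the gene-by-food values above 0, 17 of 55 were 1 or 2 counts, against 214 of 767 over all genes.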
